A study of Mus musculus with 20 samples.

Results

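The enzymes of glycolysis and the main glucose carrier of the fibroblast surface were followed in mouse embryonic fibroblasts kept in serum of irradiated or non-irradiated mice. The 10 genes are Slc2a1, Hk1, Hk2, Pfkl, Pfkp, Aldoa, Gapdh, Eno1, Pkm and Ldha, out of 17178 genes named on the array. They were chosen by name, with earlier results of these data known, so counts set against all probes are descriptions. Every probe whose accession matched one of them by RefSeq was taken, which gave 17 of the 41174 probes of the array. Of these 17 probes, 15 stood well above background in every array of some group and were tested, among 26239 probes tested in all. The other 2 probes, both for Hk1, were too dim to be tested.

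Embryonic fibroblasts, which grow out of dissociated mouse embryos, were given mouse serum for 24 hours, and their RNA was read on Agilent 1-colour arrays, with 5 arrays in each group. All serum donors were female mice of the inbred strain C3H/HeN. The 8 Gy cultures received serum of mice irradiated at 8 Gy in a 20-day set, and the 20-day control cultures received serum of non-irradiated mice (0 Gy) of that set. The 4 Gy cultures received serum of mice irradiated at 4 Gy in a 10-day set, and the 10-day control cultures serum of non-irradiated mice (0 Gy) of that set. The labels name the irradiation L/MDR without expanding it and give no strain for the embryos. Whether the days count the exposure or the wait until bleeding is not given. Because dose and day changed together, dose and set cannot be told apart when the 8 Gy response is set against the 4 Gy response. The labels do not tell whether the 5 arrays of a group stand for separate cultures or donors, so that p-values cover the spread between arrays, which may be technical.

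Glycolysis takes glucose from the medium to pyruvate in the cytosol and yields ATP and NADH on the way. Hexokinase, phosphofructokinase and pyruvate kinase catalyse its irreversible steps and carry most of its control, while lactate dehydrogenase turns pyruvate into lactate and returns the NAD that glyceraldehyde phosphate dehydrogenase needs. Cultured fibroblasts rely on this pathway even with oxygen present, and several of its genes are known targets of hypoxia-inducible factor and of Myc, whose binding sites share a short core.

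The stretches before the start sites are shown for 4 members described below, as examples of the glucose carrier and the 3 irreversible steps: Slc2a1, Hk2, Pfkl and Pkm. Each line gives the 250 bases before the annotated start, from RefSeq on GRCm38.p6, 5′ to 3′ on the strand of the gene. Capitals mark each match of ACGTG or GCGTG, the core bound by hypoxia-inducible factor, on either strand, so a match on the other strand reads CACGT or CACGC. The windows are chr4:119108495-119108744 (plus strand) for Slc2a1, chr6:82774455-82774704 (minus strand) for Hk2, chr10:78009808-78010057 (minus strand) for Pfkl and chr9:59656326-59656575 (plus strand) for Pkm.
Slc2a1: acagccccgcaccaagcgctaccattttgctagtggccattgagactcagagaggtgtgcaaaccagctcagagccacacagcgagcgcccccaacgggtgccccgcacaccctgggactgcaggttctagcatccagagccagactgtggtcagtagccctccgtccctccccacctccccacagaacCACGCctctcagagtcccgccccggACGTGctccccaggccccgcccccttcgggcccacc
Hk2: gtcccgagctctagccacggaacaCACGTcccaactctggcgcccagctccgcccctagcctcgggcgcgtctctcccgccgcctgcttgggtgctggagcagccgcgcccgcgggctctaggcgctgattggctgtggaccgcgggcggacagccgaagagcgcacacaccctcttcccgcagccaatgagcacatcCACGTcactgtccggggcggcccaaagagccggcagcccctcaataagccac
Pfkl: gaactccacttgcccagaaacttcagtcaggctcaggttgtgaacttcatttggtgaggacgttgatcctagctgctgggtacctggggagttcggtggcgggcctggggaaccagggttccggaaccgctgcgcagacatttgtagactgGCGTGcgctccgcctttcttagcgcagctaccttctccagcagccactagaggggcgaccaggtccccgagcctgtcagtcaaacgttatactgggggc
Pkm: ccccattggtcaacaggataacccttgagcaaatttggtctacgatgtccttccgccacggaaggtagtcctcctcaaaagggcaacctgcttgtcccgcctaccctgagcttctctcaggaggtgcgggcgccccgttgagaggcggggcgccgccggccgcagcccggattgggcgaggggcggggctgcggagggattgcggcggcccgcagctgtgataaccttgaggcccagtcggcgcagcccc
Slc2a1 and Hk2 held 2 matches each, Pfkl 1 and this Pkm window, the most upstream of 2, held 0. All 10 members had at least 1 window and 17 windows in all, of which 14 held a match, and 7 of the 10 most upstream windows did. The windows of Hk1 held 0 and 3 matches, those of Eno1 1, 2 and 2, those of Ldha 5 and 1, those of Aldoa 0, 1 and 1, and the other Pkm window 1. Whether the number of matches goes with the direction of change with 8 Gy serum was not tested. Among all 32851 windows of that length in the table, 38.6% held a match and 16.7% held 2 or more. Windows of 1 gene can overlap and count the same site again, as the last 2 windows of Aldoa and of Eno1 do. GC content was 49.6% to 71.2% in the member windows, and the shares over all windows were not matched for it. The counts are therefore not a measure of enrichment. The palindrome CACGTG, the core bound by Myc, counts as an ACGTG match on both strands. It was found in 1 of the 17 member windows, in Ldha, and in 6.02% of all windows. A match of letters is a description of the window and says nothing about whether a factor binds there, and no match says only that these letters are not in this window.

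With 8 Gy serum the members moved in opposite directions in the 20-day set. Signals are log2 processed intensities relative to each array's own 75th percentile, and a probe passed the test at an adjusted p under 0.05 in limma, adjusted over all probes tested. Of the 15 probes tested, 7 rose, 3 fell and 5 did not pass, at a background of 48% of all probes called in this comparison (20.6% higher and 27.4% lower). The probes that rose belong to Hk1, Pfkl, Eno1, Pkm and Ldha, and those that fell belong to Slc2a1, Hk2 and Aldoa. The median change over the 15 probes was 0.22, against −0.06 over all probes tested. The 8 Gy and control arrays did not overlap for 6 probes that were higher and 3 that were lower, against 11.3% and 18.1% of all probes (29.5% in either direction).

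With 4 Gy serum in the 10-day set, 0 of the 15 probes passed the test in limma, at a background of 5.25% of all probes (3.85% higher and 1.39% lower). An unadjusted limma p under 0.05 was found for 2 of them (Slc2a1 and 1 of the Aldoa probes), against 5595 of all 26239 probes tested. The changes lay between −0.32 and 0.19. When limma was run on the 10 arrays of that set alone, or on the authors' deposited table, 1 member probe passed, that of Slc2a1. In those fits more probes of the whole array passed as well, with the counts given below. The 4 Gy and control arrays did not overlap for 0 probes that were higher and 1 that was lower, against 4.15% and 4.17% of all probes (8.31% in either direction).

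The 8 Gy and the 4 Gy responses were then compared directly. Their difference passed the test for 8 of the 15 probes, at a background of 36.3% (15.3% higher and 21.1% lower): it was positive for all 3 tested Hk1 probes, Pfkl, Eno1 and Pkm, and negative for Hk2 and 1 Aldoa probe. The control cultures of both sets also differed, with 8 member probes higher and 6 lower in the 20-day than in the 10-day controls, at a background of 67.7% (35.4% higher and 32.3% lower). The 20-day and 10-day control arrays did not overlap for 7 probes that were higher and 4 that were lower, against 27% and 23.8% of all probes (50.7% in either direction). Arrays of the 10-day and 20-day sets lay on separate slides, so set and slide cannot be told apart in this last comparison. The 8 Gy and 20-day control arrays also lay on separate slides, so serum and slide cannot be told apart in the 8 Gy comparison. The difference between the responses carries the same limit. In the 10-day set 4 control arrays lay on 1 slide and 3 arrays with 4 Gy serum on another. Only 1 slide held both groups, so serum and slide are largely tied in the 4 Gy comparison too. The 20-day control arrays stand in 3 of these 4 comparisons, and their values are therefore given side by side below.

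**Figure D1:**
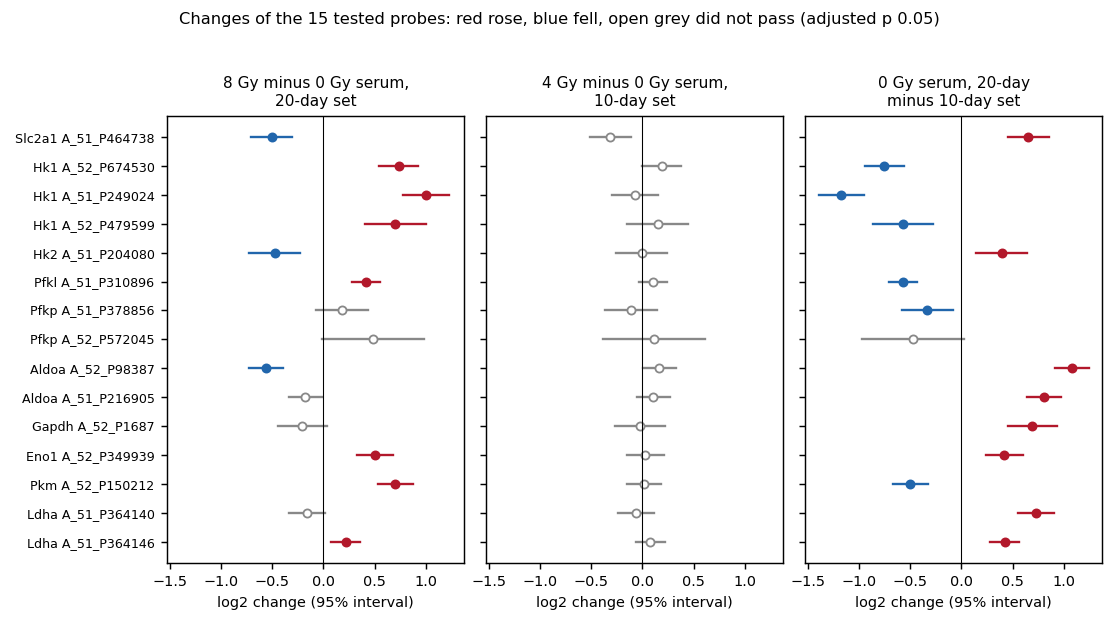
Log2 changes of the 15 tested probes, with 95% intervals, for 8 Gy minus control serum in the 20-day set, 4 Gy minus control serum in the 10-day set, and 20-day minus 10-day control serum (5 arrays in each group). Filled red points rose, filled blue points fell and open grey points did not pass an adjusted p of 0.05: in the 20-day set 7 rose and 3 fell, in the 10-day set 0 passed, and between the control groups 8 were higher and 6 lower.

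Slc2a1 (chr4:119108745-119137330 on GRCm38.p6, the build of all positions here) encodes GLUT1, the carrier that lets glucose across the plasma membrane. Its signal was 3.33, 3.17, 2.98, 3.32 and 3.06 on the 8 Gy arrays and 3.69, 3.68, 3.90, 3.63 and 3.48 on the 20-day control arrays. It was 2.81, 2.79, 2.60, 2.55 and 2.81 on the 4 Gy arrays and 2.86, 3.19, 3.06, 3.13 and 2.90 on the 10-day control arrays. In both sets every array with irradiated serum lay below every control array of that set. The fall with 8 Gy serum was −0.51 ± 0.10 (log2 change ± SE, n = 5 arrays per group, limma adjusted p = 0.000276), a 1.42-fold lower signal. With 4 Gy serum the change was −0.32 ± 0.10 (limma adjusted p = 0.0616), which missed the threshold, and became 0.0387 when only the 10-day arrays were fitted. On the 1 slide that held both 10-day groups, the 2 arrays with 4 Gy serum averaged 2.80 against 2.90 for its single control array, a difference of −0.10. The remaining 10-day arrays lay on slides that held 1 group only, so serum and slide cannot be told apart for them. The 8 Gy and 4 Gy changes did not differ beyond their error (difference −0.19, 95% interval −0.48 to 0.09, limma adjusted p = 0.285). The fall with 8 Gy serum was smaller, at −0.13 (limma adjusted p = 0.474), after normexp background correction of the median spot intensities. Here as for every gene below, fewer cells of a type and less RNA per cell cannot be told apart.

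The hexokinases phosphorylate glucose on entry, which keeps it in the cell. Hk1 (chr10:62268855-62379920) encodes the broadly expressed isoenzyme that docks on mitochondria, and Hk2 (chr6:82725025-82774454) the isoenzyme best known from muscle and fat, which is often high in dividing cells. Their signals moved in opposite directions in the 20-day set. Hk1 probe A_51_P249024 gave −1.15, −0.69, −0.76, −0.69 and −1.01 with 8 Gy serum and −2.02, −1.76, −1.63, −2.20 and −1.72 with 20-day control serum. The 20-day controls stood alone: the 4 Gy arrays (−0.76, −0.75, −0.71, −0.85 and −0.77) and the 10-day control arrays (−0.62, −0.78, −0.74, −0.62 and −0.73) overlapped each other and the 8 Gy arrays. The change with 8 Gy serum was 1.00 ± 0.11 (limma adjusted p = 6.44e-07), a 2.01-fold higher signal and the largest of the 15 probes in size. With 4 Gy serum it was −0.07 ± 0.11, and the 20-day controls lay 1.17 ± 0.11 below the 10-day controls (log2 change −1.17, limma adjusted p = 1.1e-08).

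The other tested Hk1 probes gave smaller changes of the same sign with 8 Gy serum. With 4 Gy serum A_52_P674530 changed by 0.19 and A_52_P479599 by 0.15, and neither passed. A_52_P674530 measured −0.86, −0.89, −0.85, −0.79 and −1.01 with 8 Gy serum and −1.46, −1.49, −1.50, −1.85 and −1.78 with 20-day control serum, with no overlap, a change of 0.74 ± 0.09 (limma adjusted p = 3.6e-06). A_52_P479599 ranged from −2.49 to −1.96 with 8 Gy serum and from −3.49 to −2.43 with 20-day control serum, where control replicate 2 fell inside the 8 Gy range, and changed by 0.70 ± 0.14 (limma adjusted p = 0.000489). The difference from the 4 Gy response was 1.08, 0.55 and 0.55 for these 3 probes in the order given, with limma adjusted p-values of 3.5e-05, 0.00292 and 0.0372, and the last of them lost its call under all 4 other scalings, with the replicate number or slide as a block and with no filter on dim probes. It was also lost without 8 Gy replicate 3 or 4, 20-day control replicate 3, 4 or 5, 4 Gy replicate 2, 3 or 4, or 10-day control replicate 2, 3, 4 or 5 (0.42 to 0.55). Of the 2 untested probes, A_52_P9337 was well above background on 2 of the 8 Gy arrays, 0 of the 20-day control arrays, 4 of the 4 Gy arrays and 4 of the 10-day control arrays, and A_52_P87141 on 0 of all 20 arrays.

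Hk2 gave 1.35, 1.19, 1.04, 1.64 and 1.45 with 8 Gy serum and 1.76, 1.76, 1.90, 1.68 and 1.96 with 20-day control serum. Every 8 Gy array lay below every control array, by a narrow margin between 8 Gy replicate 4 and control replicate 4. The change was −0.48 ± 0.12 (limma adjusted p = 0.00295), a 1.39-fold lower signal. In the 10-day set the 4 Gy arrays (1.23, 1.45, 1.37, 1.38 and 1.63) and the control arrays (1.11, 1.53, 1.25, 1.51 and 1.70) overlapped throughout, with a change of −0.01 ± 0.12. The difference between the responses was −0.47 (limma adjusted p = 0.0358). It did not pass with quantile (−0.37, limma adjusted p = 0.12) or cyclic loess (−0.37, limma adjusted p = 0.113) normalisation. Nor did it pass with slide as a random block (−0.33, limma adjusted p = 0.306) or with no filter on dim probes (limma adjusted p = 0.061). It was also lost without 8 Gy replicate 2 or 3, 20-day control replicate 3 or 5, 4 Gy replicate 2 or 5, or 10-day control replicate 1 or 3 (−0.46 to −0.39). The 20-day controls were 0.39 ± 0.12 above the 10-day controls (limma adjusted p = 0.00694), a call that was lost with quantile (0.24) and cyclic loess (0.23) normalisation and with slide as a random block (0.32).

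Phosphofructokinase commits the sugar to glycolysis, and Pfkl (chr10:77986947-78009807) encodes its liver-type subunit. Its signal was 0.81, 0.80, 0.82, 0.90 and 0.76 with 8 Gy serum and 0.52, 0.55, 0.42, 0.26 and 0.28 with 20-day control serum. It was 1.08, 1.00, 1.10, 1.08 and 1.15 with 4 Gy serum and 1.00, 0.93, 1.04, 1.02 and 0.92 with 10-day control serum. The 8 Gy arrays lay between the other groups, all above the 20-day controls and all below the 10-day arrays. The rise with 8 Gy serum was 0.41 ± 0.07 (limma adjusted p = 4.71e-05), 0.31 more than with 4 Gy serum (limma adjusted p = 0.0138), and the 20-day controls were lower than the 10-day controls (log2 change −0.57 ± 0.07, limma adjusted p = 2.54e-07). After normexp correction the rise was 0.20 (limma adjusted p = 0.0671) and the difference between the responses 0.05. That difference also missed the threshold with scaling to the array median (0.24, limma adjusted p = 0.101) and with slide as a random block (0.31, limma adjusted p = 0.0533).

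Pfkp (chr13:6579874-6649060), the platelet-type subunit, did not pass in either irradiation comparison with all arrays. Its brighter probe, A_51_P378856, measured 0.02, −0.14, −0.14, 0.18 and 0.02 with 8 Gy serum and 0.18, −0.04, −0.55, −0.36 and −0.18 with 20-day control serum. These overlapped, with a change of 0.18 ± 0.12 (limma adjusted p = 0.225), and 0.27 (limma adjusted p = 0.0495) without 20-day control replicate 1. With 4 Gy serum the change was −0.11 ± 0.12. The 20-day controls were lower than the 10-day controls (log2 change −0.33 ± 0.12, limma adjusted p = 0.0205), a call that was lost without 20-day control replicate 3 (−0.24) or replicate 4 (−0.29), with scaling to the array median (−0.20) and with slide as a random block (−0.29). The dimmer probe, A_52_P572045, changed by 0.49 ± 0.24 with 8 Gy serum (limma adjusted p = 0.0973), and passed without 20-day control replicate 3 (0.63) or replicate 4 (0.61). Its lowest value was −5.89, on 20-day control replicate 2, against −4.62 to −4.04 on the other 20-day control arrays, and it was well above background on 4 of those 5 arrays.

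Aldoa (chr7:126795234-126800994), the aldolase that splits the phosphorylated hexose into triose phosphates, was measured by 2 probes that disagreed on the size of the change. Probe A_52_P98387 gave 6.91, 6.87, 6.93, 7.04 and 6.90 with 8 Gy serum and 7.62, 7.69, 7.38, 7.32 and 7.44 with 20-day control serum. All 8 Gy arrays lay below all control arrays, and the change was −0.56 ± 0.08 (limma adjusted p = 1.38e-05), a 1.48-fold lower signal. In the 10-day set it gave 6.48, 6.38, 6.62, 6.69 and 6.71 with 4 Gy serum and 6.40, 6.42, 6.38, 6.40 and 6.45 with control serum, a change of 0.17 ± 0.08 (limma adjusted p = 0.23). The difference between the responses was −0.73 ± 0.11 (limma adjusted p = 8.26e-05). The other probe, A_51_P216905, ranged from 6.35 to 6.57 with 8 Gy serum and from 6.49 to 6.82 with 20-day control serum, and changed by −0.18 ± 0.08 (limma adjusted p = 0.0698). Its sign depended on the scaling, with 0.05 under quantile and 0.15 under cyclic loess normalisation and −0.32 (limma adjusted p = 0.00442) with scaling to the array median, and it passed without 20-day control replicate 5 (−0.21). The fall of A_52_P98387 kept its sign under all 5 scalings, though it was −0.16 (limma adjusted p = 0.138) after normexp correction. Both probes were higher in the 20-day than in the 10-day controls, by 1.08 ± 0.08 and 0.81 ± 0.08, with ranges of 0.46 to 1.21 and 0.24 to 0.94 over the 5 scalings.

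Gapdh (chr6:125161852-125166467) encodes the dehydrogenase of glyceraldehyde phosphate, the step that makes NADH, and is widely used as a loading standard. It measured 6.75, 6.67, 6.53, 6.46 and 6.49 with 8 Gy serum and 7.01, 7.19, 6.61, 6.43 and 6.69 with 20-day control serum. It measured 6.04, 5.94, 6.18, 5.98 and 6.19 with 4 Gy serum and 6.10, 6.10, 6.13, 6.18 and 5.95 with 10-day control serum. Within each set the groups overlapped, while all 20-day arrays lay above all 10-day arrays. With 8 Gy serum the change was −0.21 ± 0.12 (limma adjusted p = 0.15), and its sign depended on the scaling: −0.35 (limma adjusted p = 0.026) with scaling to the median, 0.01 with quantile, 0.12 with cyclic loess and 0.16 with normexp correction. It passed without 20-day control replicate 4 (−0.29). The 20-day controls were 0.69 ± 0.12 above the 10-day controls (limma adjusted p = 2.81e-05), a call that was lost with cyclic loess (0.12) and normexp correction (0.33). Near-identical copies of this gene exist in the mouse genome, and whether the probe also reads them was not tested. The probes of Aldoa, Eno1 and Ldha were likewise not checked for reading related sequences.

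Eno1 (chr4:150236708-150248879) encodes the enolase that makes phosphoenolpyruvate. Its signal was 2.45, 2.42, 2.42, 2.56 and 2.47 with 8 Gy serum and 1.66, 1.96, 1.96, 2.00 and 2.21 with 20-day control serum. It was 1.65, 1.40, 1.64, 1.46 and 1.67 with 4 Gy serum and 1.47, 1.58, 1.52, 1.60 and 1.50 with 10-day control serum. The 8 Gy arrays were the highest of all 20, and the groups of the 10-day set overlapped. The rise with 8 Gy serum was 0.51 ± 0.09 (limma adjusted p = 9.17e-05), a 1.42-fold higher signal, against 0.03 ± 0.09 with 4 Gy serum, and the difference of 0.48 ± 0.12 passed (limma adjusted p = 0.00483). It was also higher in the 20-day than in the 10-day controls, by 0.42 ± 0.09, a call that was lost after normexp correction (0.27, limma adjusted p = 0.137).

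Pyruvate kinase makes ATP and pyruvate at the end of the pathway, and Pkm (chr9:59656576-59679372) encodes its form in most tissues other than liver and red cells. Its splice forms differ in regulation, and which of them the single probe reads is not given in the sources used here. The signal was 4.68, 4.59, 4.70, 4.79 and 4.51 with 8 Gy serum and 3.93, 4.01, 3.84, 3.80 and 4.18 with 20-day control serum. It was 4.35, 4.31, 4.54, 4.62 and 4.52 with 4 Gy serum and 4.49, 4.48, 4.41, 4.43 and 4.45 with 10-day control serum. The 20-day controls lay below all other arrays. The rise with 8 Gy serum was 0.70 ± 0.08 (limma adjusted p = 1.73e-06), a 1.63-fold higher signal, against 0.02 ± 0.08 with 4 Gy serum. The difference between the responses was 0.69 ± 0.11 (limma adjusted p = 0.000185), and 0.34 (limma adjusted p = 0.102) after normexp correction.

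Ldha (chr7:46842274-46855627) encodes the subunit of lactate dehydrogenase that favours lactate formation. Its 2 probes gave opposite signs in the 20-day set. Probe A_51_P364146 measured 6.32, 6.42, 6.65, 6.36 and 6.35 with 8 Gy serum and 6.30, 6.18, 6.11, 6.13 and 6.30 with 20-day control serum, which did not overlap by a small margin. Its rise of 0.22 ± 0.07 passed (limma adjusted p = 0.0127), but not with the replicate number as a block in the 20-day arrays (limma adjusted p = 0.15) or with slide as a random block (limma adjusted p = 0.0976). It was 0.08 with scaling to the array median and 0.05 after normexp correction, neither of which passed, nor did it pass in the 20-day arrays alone (limma adjusted p = 0.082) or in the authors' deposited table (limma adjusted p = 0.0661). Probe A_51_P364140 measured 6.83, 6.81, 6.87, 6.85 and 6.88 with 8 Gy serum and 6.74, 7.10, 6.87, 7.17 and 7.14 with 20-day control serum, and overlapped. Its change was −0.16 ± 0.08 (limma adjusted p = 0.12), with −0.30 under scaling to the median and −0.39 after normexp correction, which both passed, as did the value without 20-day control replicate 1 (−0.23), and 0.03 under quantile and 0.18 under cyclic loess normalisation. The 20-day controls were above the 10-day controls by 0.73 ± 0.08 and 0.42 ± 0.07 for A_51_P364140 and A_51_P364146, and the second of these was −0.00046 under quantile and −0.13 under cyclic loess normalisation. The first was 0.13 (limma adjusted p = 0.182) under cyclic loess normalisation.

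**Figure D2:**
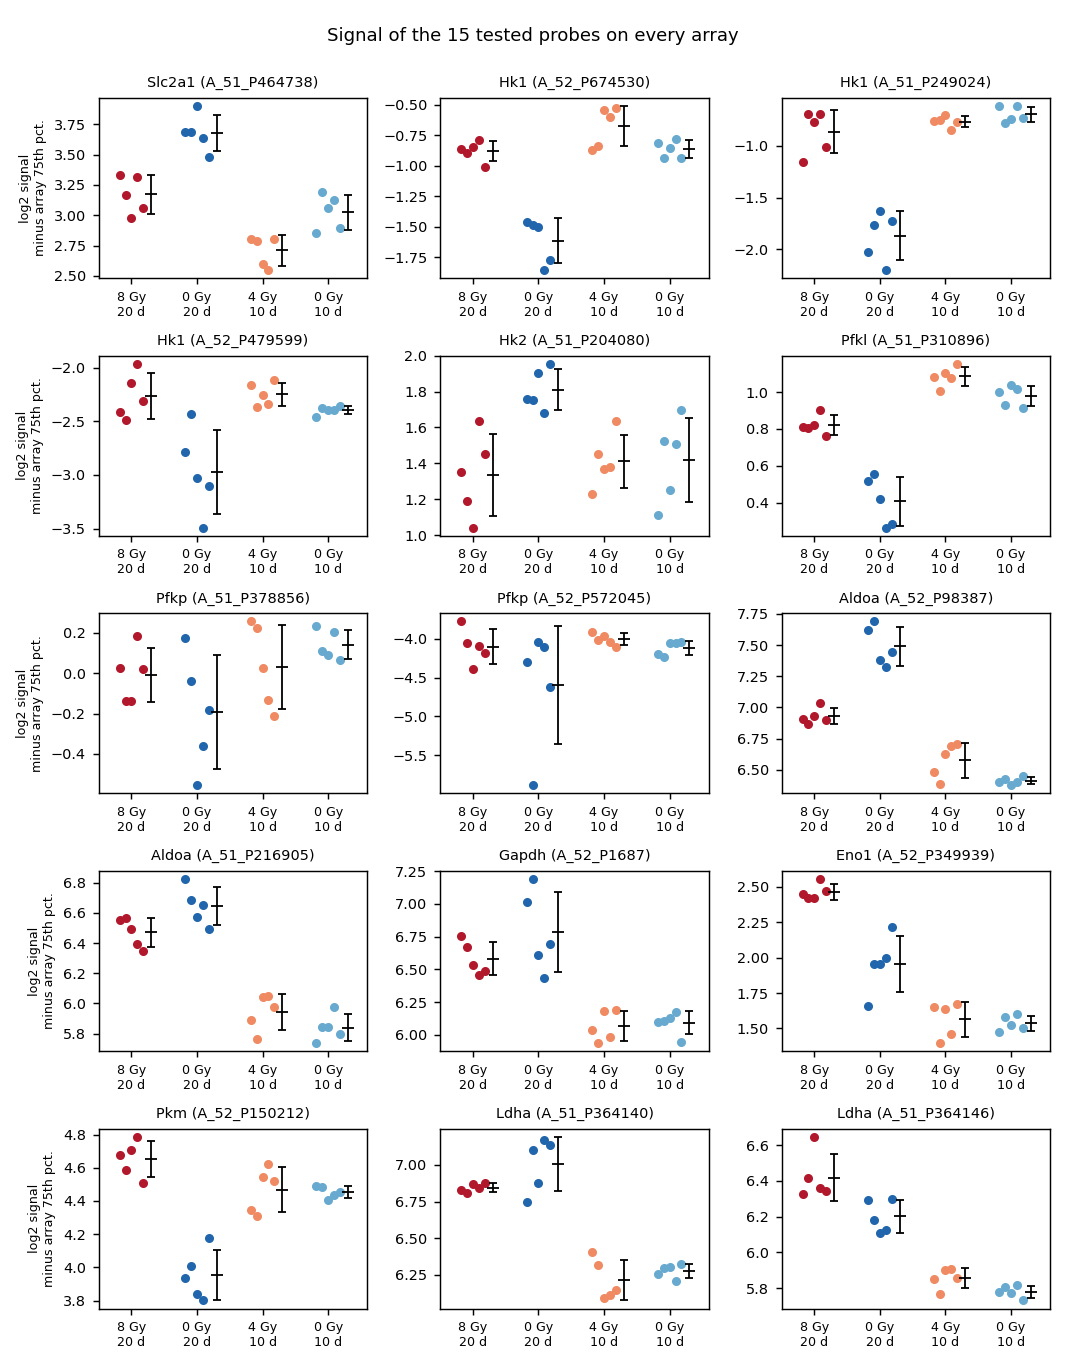
Signal of the 15 tested probes on every array (points) with the mean and SD beside each group of 5 arrays, in log2 units relative to the array's 75th percentile, with a separate vertical scale per probe. For both brighter Hk1 probes, Pfkl and Pkm the 5 control arrays of the 20-day set lie below all other arrays, for Eno1 the 8 Gy arrays lie highest, and for Slc2a1 the arrays with irradiated serum lie below the controls of their set.

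The levels of the 4 groups did not follow 1 order across the members. From highest to lowest mean, Slc2a1 ran 20-day control, 8 Gy, 10-day control, 4 Gy, where the neighbours 8 Gy and 10-day control overlapped. Gapdh and Ldha probe A_51_P364140 kept that order of groups, and both Aldoa probes placed the 4 Gy above the 10-day control cultures, with the 10-day groups overlapping for all 4 of these probes. Eno1 and Ldha probe A_51_P364146 were highest with 8 Gy serum and then in 20-day control cultures, without overlap between the 2. Hk1, Pfkl and Pfkp were lowest in 20-day control cultures on every tested probe, as was Pkm.

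Several calls depended on the scaling between arrays. Under all 5 scalings (75th percentile, array median, quantile, cyclic loess, and normexp correction before the 75th percentile), 5 probes rose with 8 Gy serum and 1 fell. These were the 3 Hk1 probes, Eno1 and Pkm, and Hk2. Their sizes moved all the same, between 0.36 and 0.94 for Pkm, 0.36 and 0.64 for Eno1 and −0.62 and −0.36 for Hk2. The share of all probes called under all 5 scalings was not computed, so the counts of 5 and 1 stand without a background. Each 20-day slide held arrays of 1 group, and with slide as a random block 9 member probes in place of 10 passed with 8 Gy serum. The sign of the change with 8 Gy serum differed between scalings for 3 of the 15 probes: Aldoa A_51_P216905, Gapdh and Ldha A_51_P364140. Scaling to the array median moved the median of all probes to −0.20 in the 20-day comparison, to 0.15 between the control groups and to −0.14 for the difference between the responses. Normexp correction moved it to 0.19 between the control groups.

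**Figure D3:**
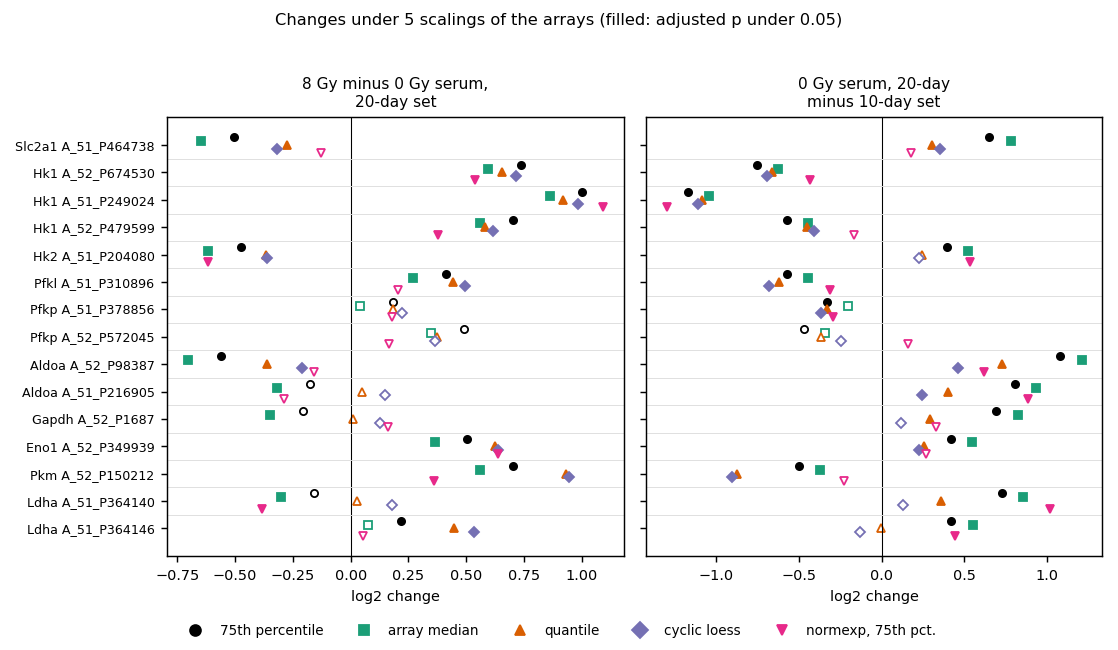
Log2 changes of the 15 tested probes under 5 scalings (symbols, filled where the adjusted p was under 0.05), for 8 Gy minus control serum in the 20-day set and for 20-day minus 10-day control serum, with 5 arrays in each group. The symbols of Hk1, Eno1, Pkm and Hk2 stay on 1 side of 0 and filled in the 20-day set, whereas those of Gapdh lie between −0.35 and 0.16.

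Among all named genes, those whose signal over the 20 arrays followed the mean of the members most closely were Cndp2, Raph1, Ampd3, Car2 and Gpr146, with Pearson correlations of 0.93, 0.93, 0.92, 0.92 and 0.92. The mean of the members, each centred on its own mean, averaged 0.14 with 8 Gy serum, 0.08 with 20-day control serum, −0.11 with 4 Gy serum and −0.11 with 10-day control serum. Correlations of single members with that mean lay between −0.50 for Pfkl and 0.86 for Gapdh, so it does not stand for all of them. The arrays share set and slide, and these values are descriptions.

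The rest of the pathway was read from a list of 42 other genes, of which 37 had a tested probe (52 probes). With 8 Gy serum 7 of these probes rose and 19 fell, with a median change of −0.06, equal to that of all probes at this precision, and a background of 20.6% higher and 27.4% lower among all probes. The same background applies to the 4 lists below. The regulators, apart from Adpgk, set the level of the phosphofructokinase activator or hold back pyruvate dehydrogenase. This list had 0 probes higher and 6 lower of 14, with Adpgk among the 6, against 20.6% and 27.4% of all probes. Pfkfb2 on probe A_51_P184849, a maker of that activator, gave −1.55, −1.42, −1.35, −1.42 and −1.42 with 8 Gy serum and −0.83, −0.64, −0.93, −0.92 and −0.89 with 20-day control serum. These did not overlap, and the change was −0.59 ± 0.07 (limma adjusted p = 2.26e-06). Pfkfb4 and Pfkfb3, of the same enzyme family, fell as well (log2 changes −0.52 and −0.40), as did Adpgk, an ADP-dependent glucokinase (−0.44), and Pdk4, a kinase that switches pyruvate dehydrogenase off (−0.39). Pfkfb4 was called under 4 of the 5 scalings (−0.66 to −0.16) and Pdk4 under 3 (−0.65 to −0.28), while Pfkfb3, Adpgk and this Pfkfb2 probe were called under all 5. Among the other Pfkfb2 probes, A_52_P142912 was called lower under all 5 (−0.61 to −0.40) and A_51_P335251 under 0 of them (−0.03 to 0.12). The number of regulators that fell was between 5 and 7 under the 5 scalings and 0 rose under any of them.

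Of the 9 probes for mitochondrial pyruvate entry, 5 fell and 0 rose with 8 Gy serum. Under the 5 scalings 3 to 6 fell and 0 to 1 rose, the 1 that rose being a Pdha1 probe with quantile and cyclic loess normalisation. Mpc1 and Mpc2 encode the carrier that takes pyruvate into mitochondria. Mpc1 probe A_52_P595687 measured 3.50, 3.57, 3.54, 3.53 and 3.56 with 8 Gy serum and 3.98, 3.99, 3.89, 4.10 and 4.00 with 20-day control serum, with a gap between the groups, and changed by −0.45 ± 0.06 (limma adjusted p = 4.92e-06). Mpc2 changed by −0.49 ± 0.07 (limma adjusted p = 8.07e-06). Over the 5 scalings these changes lay between −0.68 and −0.22 for Mpc1 probe A_52_P595687 and between −0.67 and −0.28 for Mpc2.

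Of the 13 probes for other glucose and lactate transporters, 3 rose and 3 fell with 8 Gy serum, close to the background in both directions. The list also counts the probes of Txnip, which is not itself a carrier, and these were not called under any scaling. Slc2a8, an intracellular glucose carrier, had the smallest p of the list: probe A_51_P358171 measured −2.40, −2.50, −2.44, −2.48 and −2.59 with 8 Gy serum and −3.49, −3.32, −3.48, −3.62 and −3.71 with 20-day control serum. The groups stood well apart, the change was 1.04 ± 0.08 (limma adjusted p = 1.22e-08), and the other Slc2a8 probe changed by 0.53. The first was 0.51 to 1.04 over the 5 scalings, and both were called under all of them. Slc16a3, a lactate exporter, changed by −0.59 ± 0.09 (limma adjusted p = 1.83e-05), and was called under 4 of the 5 scalings (−0.74 to −0.19). The other glycolytic enzymes were mixed, with 4 of 16 probes higher and 5 lower, and between 2 and 7 higher and 3 and 8 lower under the 5 scalings.

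With 4 Gy serum 2 probes of the other pathway genes rose and 2 fell, against 3.85% and 1.39% of all probes. Hk3, a hexokinase found mainly in blood cells, was dim, at −5.78, −6.14, −5.63, −5.73 and −5.49 with 4 Gy serum and −6.35, −7.72, −6.43, −6.60 and −7.31 with 10-day control serum, where it was well above background on 2 of 5 arrays. The groups did not overlap, and the fitted change was 1.13 ± 0.23 (limma adjusted p = 0.0127). The probe was tested because it stood well above background on every array of some other group. The gap, the call and the size of the change therefore all rest on control arrays mostly not well above background. The change was 0.41 to 1.13 over the 5 scalings and was called under 4 of them. Pgam2 rose by 0.57, and Gpi1 and Dlat probe A_51_P265106 fell by 0.28 and 0.39. The other Dlat probe, A_52_P374642, was not called and had the opposite sign, with 0.11 to 0.27 over the 5 scalings. With slide as a random block 0 of the pathway probes passed in that comparison in limma. Between the control groups 31 probes of the list were higher and 10 lower in the 20-day cultures, against 35.4% and 32.3% of all probes. Slc2a3, a neuronal-type glucose carrier, was lower (log2 change −2.41). Hk3 was higher, by 2.32 to 4.91 over the 5 scalings, and both its size and its call again rest on the dim 10-day control arrays.

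**Figure D4:**
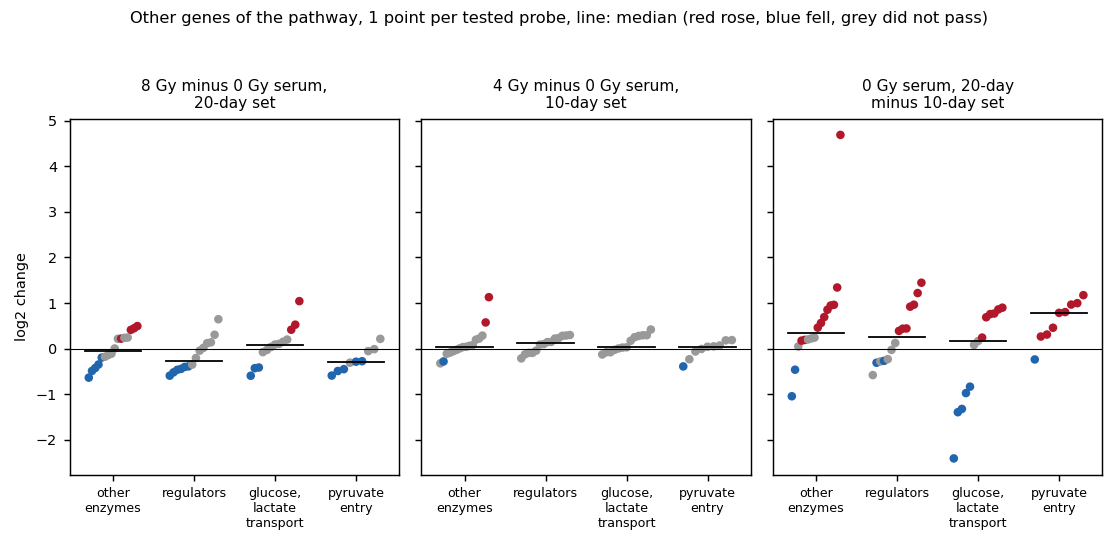
Log2 changes of the 52 tested probes of other pathway genes (points), in 4 lists, with the median of each list as a line, for the same 3 comparisons of 5 arrays with 5 arrays. Red points rose, blue points fell and grey points did not pass: with 8 Gy serum the regulators had 0 rising and 6 falling probes, and the highest point between the control groups is Hk3, which was well above background on 2 of 5 arrays of the 10-day controls.

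The label of the cells was checked with marker lists. All 10 fibroblast markers were well above background on all arrays, with a summed signal of 842 to 896 times the 75th percentile in the 8 Gy cultures, 730 to 864 in the 20-day controls, 1078 to 1238 in the 4 Gy cultures and 1150 to 1271 in the 10-day controls. Macrophage markers differed between the sets: the summed signal of the 9 with a probe was 28.1 to 34.6 in the 8 Gy cultures and 27.3 to 44.0 in the 20-day controls, against 1.45 to 1.77 in the 4 Gy cultures and 1.12 to 1.58 in the 10-day controls. All 9 were higher in the 20-day than in the 10-day controls, with a median log2 change of 4.43, and 9 of 9 were well above background on all arrays of the 20-day groups and 8 of 9 on all arrays of the 10-day groups. With 8 Gy serum 0 of them rose and 3 fell, against 20.6% and 27.4% of all probes. With 4 Gy serum 2 rose and 0 fell, against 3.85% and 1.39%. Of the 10 fibroblast markers, 2 were higher and 7 lower in the 20-day than in the 10-day controls, against 35.4% and 32.3%. With 8 Gy serum 3 fibroblast markers rose and 1 fell. The part of the macrophage and fibroblast markers in the differences of the members, and in that of Hk3, was not tested. Summed signals of epithelial (at most 1.78), endothelial (at most 0.292) and erythroid (at most 0.159) markers were low in all groups.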

How the data were processed

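RNA of 20 samples of cultured cells (4 groups of 5 arrays, grouped by sample title) was read on Agilent 1-colour arrays. The authors deposited a processed intensity for each spot, background-subtracted and spatially detrended, and not scaled across arrays. Feature Extraction 10.5.1.1 made them, per the file headers, whereas the submitters' processing notes name 11.0. The deposited files also hold median intensities of each spot and its surroundings, and other quality marks (0 or 1) for each spot. The deposited value table of the authors holds log2 values that were centred per probe within each set (correlations with the recomputed values 0.987 to 1.00), so it was used within sets only.

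Spots marked as non-uniform or outliers (50 to 181 per array) were left out, 0 spots were saturated, and spots of 1 probe were averaged. The signal is the log2 processed intensity relative to the array's 75th percentile, which lay between 731 and 1464 intensity units, and changes are relative to it. Between 56.8% and 67.2% of probes per array were well above background. Accessions were matched to RefSeq symbols of GRCm38.p6 (24844 probes, 17178 genes). The number of arrays limits the precision.

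Groups were compared with limma 3.58.1 in R 4.3.3 (lmFit and eBayes, two-sided, all 20 arrays in 1 fit, Benjamini-Hochberg over all probes tested, each probe on its own), and checked on simulated data. Every member probe is named, along with the smallest p of other pathway genes and the 5 named genes most like the members' mean. Members, lists and markers were chosen with earlier results of these data known. Deviations of same-numbered arrays correlated at 0.13 to 0.40 in the 20-day set, with all 5 pairs over the threshold of 0.1, and at −0.05 to 0.16 in the 10-day set, with 3 of 5 pairs over it. In each set an array matched its own number best in 2 of 5 pairs, and the labels name no pairing. A replicate block on the 20-day arrays alone was chosen after seeing the data, as were the counts of other pathway genes under each scaling. The normexp alternative (offset 50) used median spot intensities. The arrays lay on 7 slides, with each 20-day slide holding 1 group.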

Additional observations from a re-analysis of the deposited data

Results flagged for a closer look

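The response to 8 Gy serum (20-day set) differed from that to 4 Gy serum (10-day set) for 8 of the 15 tested probes, by limma's test of the difference of log2 changes at an adjusted p under 0.05. Of all probes tested, 36.3% passed in this comparison (15.3% higher and 21.1% lower). The difference, 8 Gy minus 4 Gy response, was 0.55 for Hk1 probe A_52_P674530, 1.08 for Hk1 probe A_51_P249024 and 0.55 for Hk1 probe A_52_P479599. It was −0.47 for Hk2, 0.31 for Pfkl, −0.73 for Aldoa probe A_52_P98387, 0.48 for Eno1 and 0.69 for Pkm. Dose and set cannot be told apart in these differences, nor can serum and slide in their 20-day part. The call of Hk1 probe A_52_P479599 was lost under every other scaling, and that of Hk2 with quantile and cyclic loess normalisation. Pfkl lost its call with scaling to the array median and normexp correction, and Pkm with normexp correction. With slide as a random block the calls of Hk1 probe A_52_P479599, Hk2 and Pfkl were lost. Among the 17 member probes in 4 groups, 0 of 68 groups held an array that stood apart from the other 4 by Dixon's test, where chance gives about 1 in 20.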

How the results depend on the processing

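Of 636 changes of single member probes recomputed under the alternatives other than leaving out an array, 550 kept their direction and side of the threshold, 36 lost and 10 gained a call, and 34 changed sign. The remaining 6 were values within the 1 slide that held both 10-day groups, which have no test and moved by more than the spread between arrays. Of 1200 such values without 1 array, 1153 were unchanged in this sense, 22 lost and 16 gained a call and 9 changed sign. Among called values only that of Ldha A_51_P364146 between the control groups changed sign (−0.00046 with quantile and −0.13 with cyclic loess normalisation). The causes were not tested.

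The count of all probes called with 4 Gy serum, 1377, was the least stable: 1 with slide as a random block, 27 with slide as a fixed block in the 10-day arrays, 3396 with those arrays alone, 3375 in the authors' deposited table and 29 to 2512 without 1 array (lowest without 4 Gy replicate 4, highest without 4 Gy replicate 2). The 4 Gy count of member probes was 1 with the 10-day arrays alone, 1 in the authors' deposited table and 0 to 1 without 1 array (1 without 4 Gy replicate 1, 4 Gy replicate 2 or 20-day control replicate 3). With slide as a random block 8373 instead of 12600 probes passed with 8 Gy serum and 5304 instead of 9536 in the difference between the responses. In that difference 5 member probes passed with normexp correction and 5 with the random block, in place of 8, and 9 instead of 14 passed between the control groups with normexp correction. Scaling to the median gave 3806 probes higher and 9937 lower with 8 Gy serum, against 5409 and 7191.

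Replicate numbers were used as a block in all 4 comparisons. With this block in the fit of all 20 arrays, 10 member probes again passed with 8 Gy serum and 7 instead of 8 in the difference, where Hk1 A_52_P479599 was lost. Over the 20-day arrays alone, 9604 probes and 9 member probes passed, Ldha A_51_P364146 being lost. The block changed no other member call.

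Values that changed sign in the 4 Gy comparison were all under 0.2 in size and not called. They were for Hk2 0.0014 (quantile), 0.0093 (cyclic loess) and −0.083 to 0.064 (without 1 array), and for Gapdh 0.0091 (quantile), 0.011 (cyclic loess), 0.00064 (random block), 0.042 (fixed block) and −0.061 to 0.0073 (without 1 array). For Pkm they were −0.059 (median), −0.030 (random block), −0.12 (fixed block) and −0.023 to 0.055 (without 1 array), and for Eno1 −0.046 (median) and −0.0078 (normexp). The fixed block gave 0.17 for Pfkp A_51_P378856, −0.017 for Aldoa A_52_P98387 and 0.041 for Ldha A_51_P364140, and normexp −0.034 for Aldoa A_51_P216905. With 8 Gy serum, quantile and cyclic loess gave 0.049 and 0.15 for Aldoa A_51_P216905, 0.012 and 0.12 for Gapdh (0.16 with normexp), and 0.029 and 0.18 for Ldha A_51_P364140. In the difference between the responses, Slc2a1 was 0.036 (quantile) and 0.29 (normexp), Pfkp A_52_P572045 −0.022 (normexp), Aldoa A_51_P216905 0.0080 (cyclic loess), Gapdh 0.0030 (quantile), 0.11 (cyclic loess) and 0.20 (normexp), and Ldha A_51_P364140 0.061 (quantile) and 0.21 (cyclic loess). Between the control groups Pfkp A_52_P572045 was 0.16 with normexp. The probe with the lowest mean signal of those tested, Pfkp A_52_P572045, has the widest errors.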

Other observations

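The isoenzyme balance was read as a difference of log2 signals within each array, a quantity that no additive scaling of the array moves. It was chosen after the values had been seen and has no test. Its level depends on how well each probe binds, so that it compares groups and not the enzymes. Hk1 probe A_52_P674530 minus Hk2 ranged from −2.46 to −1.89 with 8 Gy serum, from −3.73 to −3.22 with 20-day control serum, from −2.29 to −1.91 with 4 Gy serum and from −2.64 to −1.92 with 10-day control serum. The 20-day controls lay apart from the other groups, which overlapped. Pfkl minus Pfkp probe A_51_P378856 ranged from 0.72 to 0.96 with 8 Gy serum, from 0.34 to 0.97 with 20-day control serum, from 0.78 to 1.37 with 4 Gy serum and from 0.77 to 0.94 with 10-day control serum, and all groups overlapped.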
